A study of Mus musculus with 12 samples.

Results

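The insulin-like growth factor (IGF) binding proteins are secreted proteins that hold IGF-1 and IGF-2 in blood and tissue fluid. The liver makes much of the IGF-1 of the blood, and different liver cells make different binding proteins. In blood most IGF-1 travels in a complex of Igfbp3 and the acid-labile subunit Igfals, whereas Igfbp1 is a short-lived hepatocyte product whose transcription is repressed by insulin and raised in fasting and stress. The genes described are Igfbp1 to Igfbp7, found by their symbols in the platform annotation: 7 of the 12393 genes that had a probe set with a single symbol, measured by 15 of the 22690 probe sets of the array. The members were chosen on their symbols and with the wide spread of Igfbp1 after testosterone withdrawal in view. The Igfbp1 values of that group, and every comparison that uses them, are therefore a description and were given no test.

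All 12 mice were C57BL/6 females, and the liver of each was hybridised to 1 Affymetrix mouse array. Each mouse had received subcutaneous injections for 3 weeks, 2 a week, of 100 µl sesame oil with or without 0.9 mg testosterone. The 4 groups of 3 mice were withdrawn testosterone mice, withdrawn vehicle mice, treated testosterone mice and treated vehicle mice, where treated means that the liver was taken when the injections ended. The sample titles give 12 weeks of withdrawal, whereas the design text of the series gives 3 weeks. The treatment labels of all 3 withdrawn testosterone mice name testosterone as the agent injected but vehicle as the agent withdrawn, while their titles name withdrawal of testosterone, which was followed here. Ages are not given by the sources used, and time since the last injection and any difference in age cannot be told apart between the earlier and later groups.

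Values are array signals, brightness on a linear scale that had been brought to a common trimmed mean of 100.0 to 100.1 on every array before deposit. The median probe set of an array had a signal of 20 to 22.4. Replicate arrays of a group correlated at 0.979 to 0.989 over probe sets on the log2 scale. The hepatocyte list (Alb, Ttr, Apoa1 and others) had 7 of its 8 genes on the array, all past the signal filter, with summed signals of 32592 to 41994. The exocrine pancreas markers, which name a tissue that a liver sample should lack, summed to 349, 850 and 49.1 in testosterone mice 1, 2 and 3 after withdrawal and to 25.5 to 85.7 in the other 9 mice. The ratio of the 3' to the 5' probe set of actin, a sign of RNA integrity and of complete copying, was 2.03 to 2.19 in treated testosterone mice and 1.44 to 1.64 in treated vehicle mice, and 1.47 to 1.82 in testosterone mice and 1.60 to 1.89 in vehicle mice after withdrawal.

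Of the 7 genes, 6 passed the signal filter (a signal over the median of its array on 3 or more of the 12 arrays) and were tested among 7217 genes. Igfbp6 did not pass. Two-sided tests used limma on log2 signals, with p-values adjusted by the Benjamini-Hochberg method over all 7217 genes; genes with an adjusted p under 0.05 were called. With 3 mice against 3 an exact permutation test cannot go below p = 0.1, so none was run. The signals of different probe sets are not comparable with each other, so levels are compared only between mice.

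**Figure D1:**
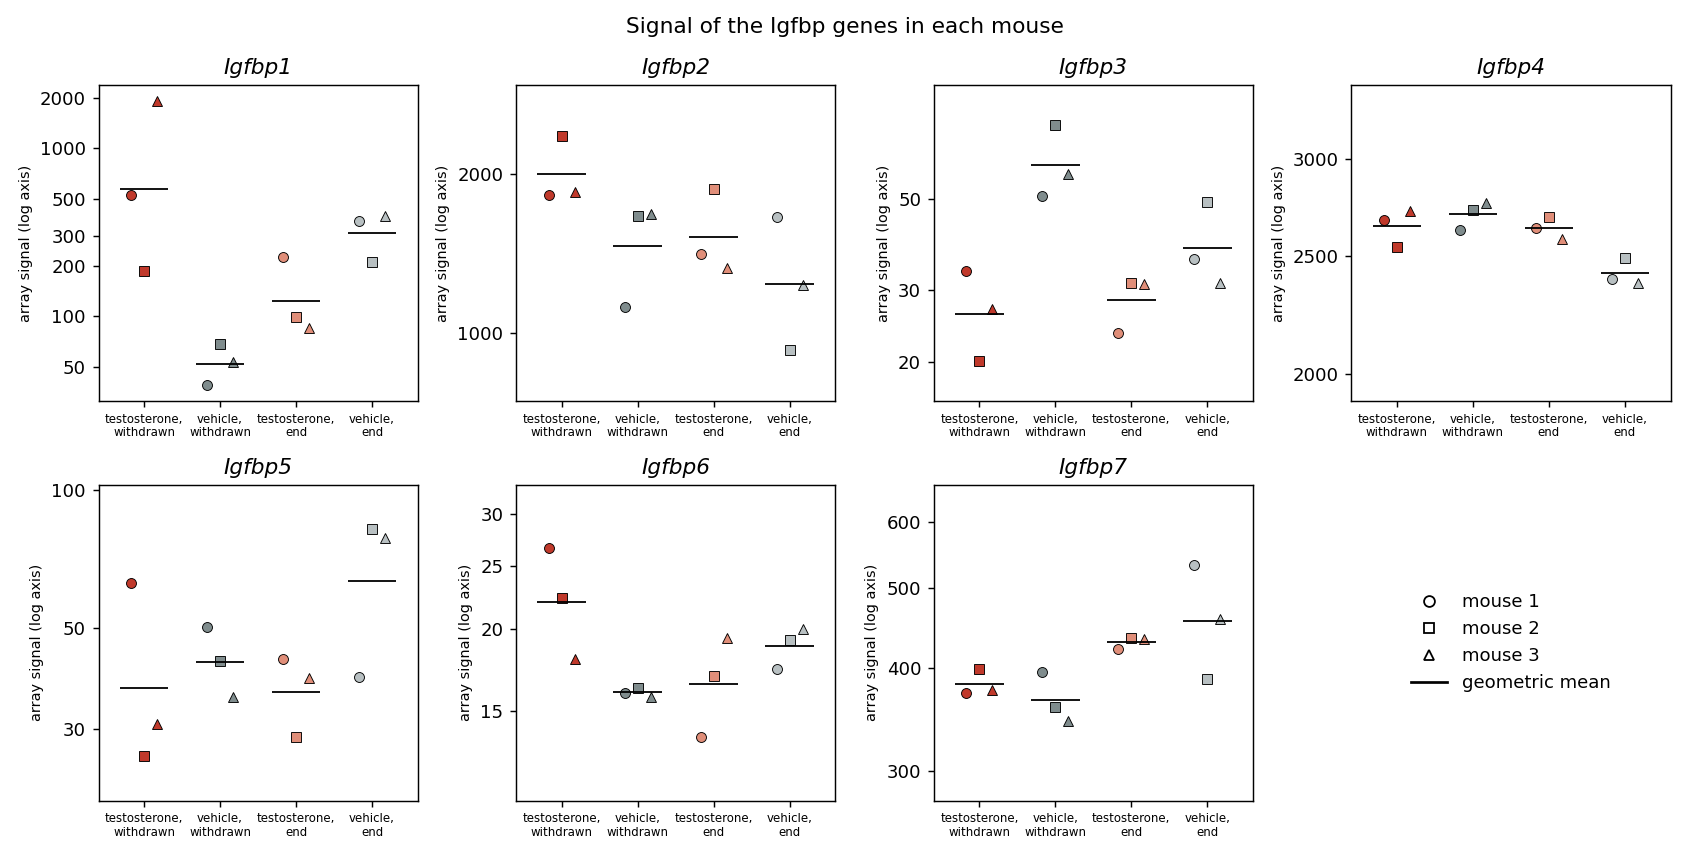
Array signal (log axis) of the main probe set of each of the 7 Igfbp genes in the 12 mice, by group, with the geometric mean of each group as a bar. Igfbp1 spans 39.0 to 1915 and is most scattered in testosterone mice after withdrawal, Igfbp3 of those mice lies below all 3 vehicle mice of the same time, and Igfbp4 stays between 2376 and 2760.

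Igfbp1 and Igfbp3 are neighbouring protein-coding genes on mouse chromosome 11 and Igfbp2 and Igfbp5 neighbours on chromosome 1, each pair on opposite strands. The promoters of Igfbp1 and Igfbp3, the members with a called change, are shown because they lie in the same locus and differ in sequence. Each runs from 250 bases before to 50 bases after the start of the gene and is taken from RefSeq (GRCm38.p6), Igfbp1 at chr11:7197537-7197836 on the plus strand and Igfbp3 at chr11:7213874-7214173 on the minus strand. Capitals mark matches to CAAAANAA, the core of the insulin response sequence, which in the human and rat IGFBP1 promoters is bound by FOXO factors, and to the site of HNF1, a hepatocyte transcription factor. Both strands were searched.
Igfbp1: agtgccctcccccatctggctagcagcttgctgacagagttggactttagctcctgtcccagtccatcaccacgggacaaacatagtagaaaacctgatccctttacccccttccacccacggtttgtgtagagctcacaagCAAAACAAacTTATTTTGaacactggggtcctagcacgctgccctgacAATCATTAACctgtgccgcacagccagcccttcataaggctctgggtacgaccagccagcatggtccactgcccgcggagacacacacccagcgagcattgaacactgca
Igfbp3: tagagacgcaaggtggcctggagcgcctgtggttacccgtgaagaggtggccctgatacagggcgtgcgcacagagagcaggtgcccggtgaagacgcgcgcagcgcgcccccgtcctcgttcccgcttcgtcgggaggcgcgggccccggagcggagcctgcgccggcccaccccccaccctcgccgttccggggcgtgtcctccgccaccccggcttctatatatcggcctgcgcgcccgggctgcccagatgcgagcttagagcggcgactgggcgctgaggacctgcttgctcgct
The Igfbp1 window held 2 insulin response cores, which start 108 and 98 bases before the gene's start, lie on opposite strands without overlap and together form the run CAAAACAAACTTATTTTG. It also held 1 HNF1 match. Neither motif was found in the 7 windows of the other 6 members. Among 32851 mouse promoter windows of the same length, 7.95% held at least 1 such core, 0.776% held 2 or more and 0.399% held this part of the HNF1 site. The Igfbp1 window had 54.3% G and C and 8 CG dinucleotides, near the medians of 52.7% and 7 over all windows, while the Igfbp3 window had 71.7% and 37. These are matches of letters, and no binding was measured.

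Igfbp1 was lower in vehicle mice after withdrawal than in vehicle mice at treatment end and had its highest and most scattered signals in the mice withdrawn from testosterone. After withdrawal the 3 testosterone mice had Igfbp1 signals of 526, 186 and 1915, against 39.0, 68.2 and 53.0 in the vehicle mice. At treatment end the signals were 224, 98.4 and 85.5 in testosterone mice, against 368, 211 and 393 in vehicle mice. Means were 876 ± 916, 53.4 ± 14.6, 136 ± 76.5 and 324 ± 98.9 (SD, n = 3 mice each) in withdrawn testosterone, withdrawn vehicle, treated testosterone and treated vehicle mice.

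Ordered by geometric mean, Igfbp1 was highest in withdrawn testosterone mice (573), followed by vehicle mice at treatment end (313), testosterone mice at treatment end (124) and withdrawn vehicle mice (52.1). The first of these groups enclosed the second, since its lowest mouse lay below and its highest above all mice treated with vehicle. The second and the third overlapped in a single pair of mice, 224 in a testosterone mouse against 211 in a vehicle mouse. All mice of the third lay above all mice of the fourth.

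In testosterone mice after withdrawal the highest Igfbp1 signal was 10.3 times the lowest, and the SD on the log2 scale was 1.68, the third widest of the 7217 genes in that group, where the median gene had 0.16. Igfbp1 was also widely spread in the other groups, whose spread the choice did not name, though earlier results of these data were known. Its log2 SD was 0.75 in testosterone mice at treatment end (rank 32), 0.49 in vehicle mice at the end (rank 349) and 0.40 in withdrawn vehicle mice (rank 407). The ratio of geometric means after withdrawal was 11-fold, a log2 difference of 3.46 between testosterone and vehicle, and all 3 testosterone mice lay above all 3 vehicle mice. Single mice moved this value: the log2 difference was 2.59 without testosterone mouse 3 and 4.27 without testosterone mouse 2. Between the times the testosterone mice differed by 2.21 on the log2 scale, withdrawal over end of treatment, with overlapping mice.

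The comparison of vehicle mice between the times does not use that group's values, although the fit shares its estimate of the spread. Igfbp1 fell by 2.59 ± 0.59 on the log2 scale (SE; 6.00-fold; limma, adjusted p = 0.00928) in vehicle mice after withdrawal relative to vehicle mice at treatment end, and the mice did not overlap. The call was lost without the signal filter (adjusted p = 0.0821) and with the actin ratio as a covariate (log2 change -2.04, adjusted p = 0.161); the part of RNA quality in it was not tested. At treatment end Igfbp1 differed by -1.34 ± 0.59 (SE) between testosterone and vehicle mice and was not called (limma, adjusted p = 0.132). The fit shares its spread with the wide group: with only the 6 mice compared in the fit the adjusted p was 0.0283, without withdrawn testosterone mouse 2 it was 0.0483, and without mouse 3 it was 0.0330. With the actin ratio as a covariate the same difference was -0.07 (adjusted p = 0.990).

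**Figure D2:**
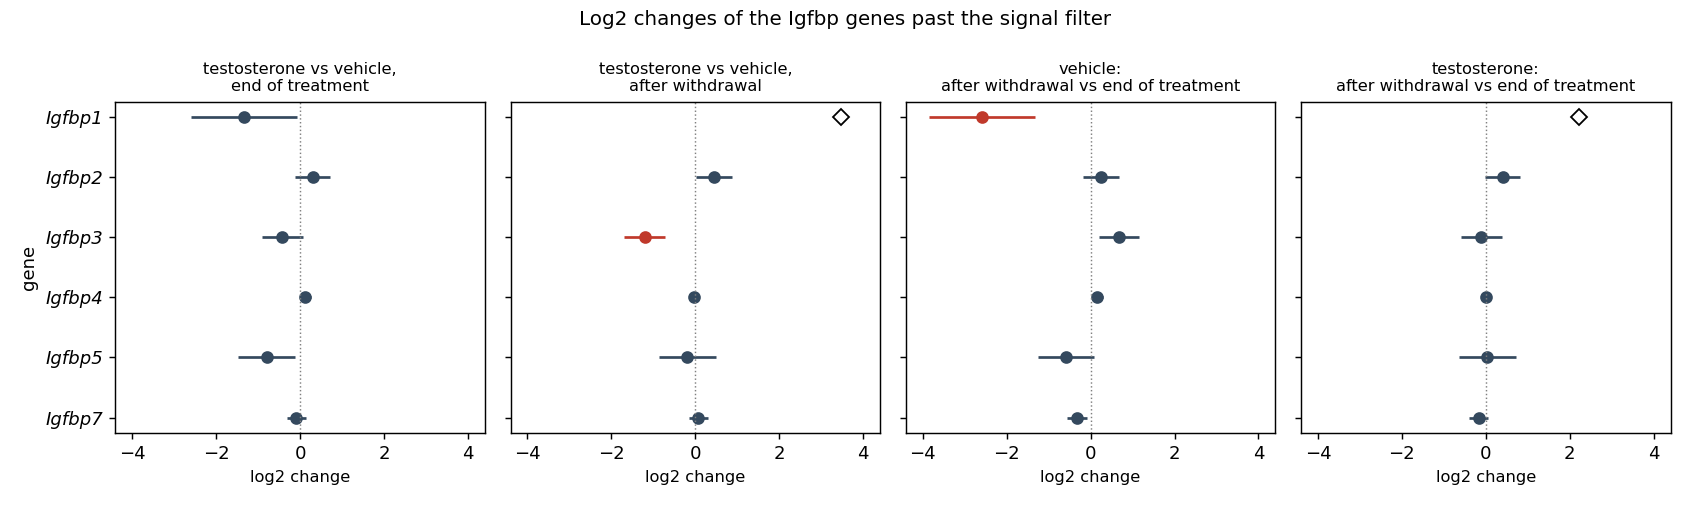
Log2 change of the 6 Igfbp genes past the signal filter in 4 comparisons, with 95% intervals from the limma fit as lines. Red marks the calls, Igfbp3 at -1.21 after withdrawal and Igfbp1 at -2.59 between the times in vehicle mice, and open diamonds mark the Igfbp1 differences of 3.46 and 2.21, which were given no test.

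Several genes were high and low in the same mice as Igfbp1. The 5 genes whose log2 signal correlated best with that of Igfbp1 over the 12 mice were Herpud1, Efna1, Zfp36, Il15ra and Pdcl, with Pearson r of 0.83 to 0.90 (Spearman rho 0.71 to 0.90) and 0.61 to 0.85 without the 2 mice farthest from the Igfbp1 median. These values describe 12 mice that share 4 group means and 1 scaling, and these genes were picked as those with the highest correlation.

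Herpud1, a membrane protein of the endoplasmic reticulum that takes part in the disposal of misfolded proteins, had signals of 1474, 1450 and 1927 in withdrawn testosterone mice, against 545, 544 and 536 in withdrawn vehicle mice. Its signals at treatment end were 1136, 1051 and 797 in testosterone mice, against 1099, 1095 and 1269 in vehicle mice. The order of the groups was that of Igfbp1, with a far narrower spread within each. Efna1, a membrane-bound ligand of Eph receptors, had 204, 170 and 248 in withdrawn testosterone mice, against 74.7, 73.3 and 83.1 in withdrawn vehicle mice. Herpud1 and Efna1 were picked for their correlation with Igfbp1 over the same mice, so their likeness to it is partly a result of the choice.

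Among the withdrawn testosterone mice, mouse 3 had the highest Igfbp1 signal and also the highest signals of Zfp36 and Dusp1. Zfp36 was picked for its correlation with Igfbp1 over mice that include mouse 3. Its high signal there is thus partly a result of the choice. Its r of 0.84 was 0.61 without the 2 mice farthest from the Igfbp1 median, mouse 3 among them. Zfp36, which speeds the decay of AU-rich mRNAs, had 162, 170 and 413 in mice 1, 2 and 3, and Dusp1, a phosphatase of MAP kinases that glucocorticoids induce, had 275, 379 and 875. Dusp1 was 127, 112 and 229 in withdrawn vehicle mice, and it was called higher in testosterone mice after withdrawal (log2 change 1.60 ± 0.39, limma adjusted p = 0.0210). Of the 9 glucocorticoid-induced genes it alone was called higher in that comparison, and 2, Mt1 and Mt2, were called lower. Dusp1 was not among the genes listed to be set beside Igfbp1 by mouse. Zfp36 and Dusp1 were both lower in mouse 1 than in mouse 2, the reverse of Igfbp1.

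A further 10 genes were set beside Igfbp1 in these 3 mice, and each varied less among them than Igfbp1 did. The gluconeogenic enzyme genes Pck1 and G6pc, which insulin represses too, had 1110, 1016 and 1443 and 854, 1133 and 1387 in mice 1, 2 and 3. Tat had 2141, 2656 and 2413, Cdkn1a 26.0, 21.8 and 19.1, and the acute phase gene Saa1 189, 410 and 200. The metallothioneins Mt1 and Mt2 had 127, 145 and 224 and 28.5, 33.6 and 39.7. Irs2, Asns and Trib3 did not pass the signal filter. Of the 10, Mt1, Mt2, G6pc, Pck1 and Trib3 had their highest signal in mouse 3, which also had the highest Igfbp1. The share of all genes that were highest in mouse 3 was not counted, so this does not set these genes apart. The mouse with the lowest Igfbp1, mouse 2, had the highest sum of exocrine pancreas markers, and the mouse with the highest Igfbp1, mouse 3, had the lowest; the part of these markers in the spread was not tested.

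**Figure D3:**
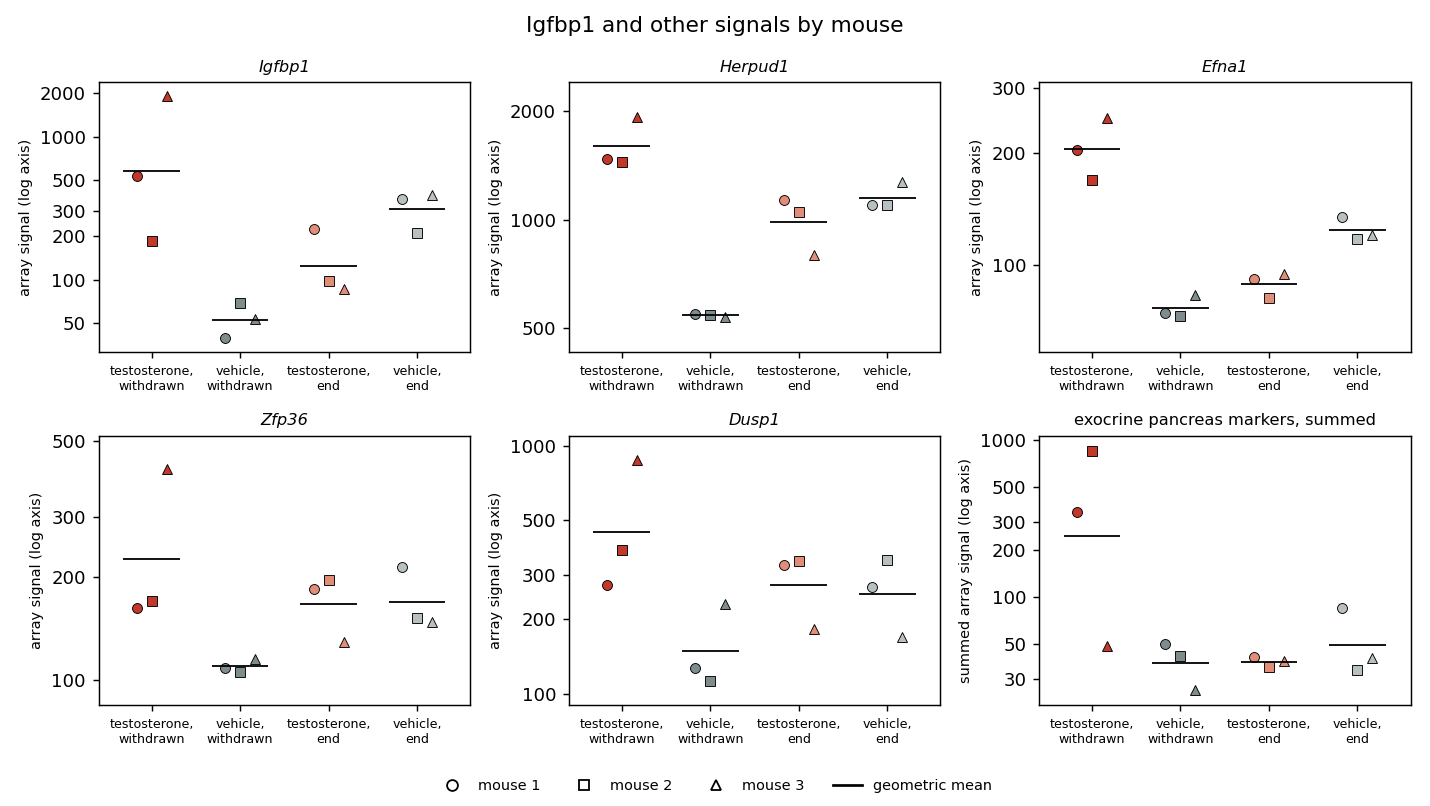
Array signal (log axis) by mouse of Igfbp1, of Herpud1, Efna1 and Zfp36, which followed it most closely, of Dusp1, and of the summed exocrine pancreas markers, with geometric means as bars. Mouse 3 of the withdrawn testosterone group is highest for Igfbp1 (1915), Herpud1 (1927), Efna1 (248), Zfp36 (413) and Dusp1 (875), but has the lowest pancreas sum of its group (49.1). Herpud1, Efna1 and Zfp36 were picked for their correlation with Igfbp1 over mice that include mouse 3, so their high signals there are partly a result of the choice.

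Igfbp3, the main carrier of IGF-1 in blood, was lower in testosterone mice than in vehicle mice after withdrawal. Its signals were 33.4, 20.1 and 27.0 in withdrawn testosterone mice, against 50.9, 75.9 and 57.4 in withdrawn vehicle mice. At treatment end they were 23.6, 31.1 and 31.0 in testosterone mice, against 35.6, 49.2 and 31.2 in vehicle mice. In both comparisons every testosterone mouse lay below every vehicle mouse, at treatment end by a margin of 31.1 against 31.2. Igfbp3 was read by a single probe set, which lay above the array's median on all 12 arrays. Its lowest signals came near the array medians of 20 to 22.4, where the array separates a gene poorly from background.

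Means of Igfbp3 were 26.8 ± 6.63 in withdrawn testosterone mice and 61.4 ± 13 in withdrawn vehicle mice, and 28.5 ± 4.28 in treated testosterone mice and 38.7 ± 9.39 in treated vehicle mice (SD, n = 3 each). The change after withdrawal was -1.21 ± 0.23 on the log2 scale (SE, 2.31-fold lower, limma adjusted p = 0.00471). Its size depended on the handling of low signals: with log2(signal + 16) it was -0.85 (limma, adjusted p = 0.00375). At treatment end the change was -0.42 ± 0.23 and was not called (adjusted p = 0.219). The difference between these effects was -0.78 ± 0.32 (limma, adjusted p = 0.169), which was not called either, so the effect was not shown to differ between the times. With the actin ratio as a covariate the change was -0.96 after withdrawal (limma, adjusted p = 0.0239) and -1.34 at treatment end (adjusted p = 0.229). The difference between the effects was then 0.38, of the opposite sign, and that between the times in vehicle mice 0.28. The part of RNA quality was not tested. Without withdrawn testosterone mice 1 and 2, those with raised pancreas markers, the change after withdrawal was -1.17, of nearly the same size, and missed the threshold (adjusted p = 0.0523). That comparison leaves 1 testosterone mouse, which is assumed to vary like the other groups.

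Vehicle mice had 0.67 ± 0.23 higher log2 Igfbp3 signals after withdrawal than at treatment end without passing the threshold (limma, adjusted p = 0.0529), and the mice did not overlap. In testosterone mice the same difference was -0.11 ± 0.23 (adjusted p = 0.813). Of the 8 stellate and fibroblast markers tested, 2 were higher in vehicle mice after withdrawal, Pdgfrb (1.20 ± 0.23) and Reln (0.41 ± 0.11). Among 10 endothelial markers 3 were lower, Oit3 (-0.76 ± 0.18), Clec4g (-0.36 ± 0.09) and Stab2 (-0.35 ± 0.11). Of 11 Kupffer cell and macrophage markers 9 were lower, with a median change of -1.05. Over all genes 11% were higher and 6.83% lower in this comparison. The part of these cell types in the Igfbp3 difference was not tested. By geometric mean, Igfbp3 was highest in withdrawn vehicle mice (60.5), then in vehicle mice at treatment end (37.9), testosterone mice at the end (28.3) and withdrawn testosterone mice (26.3). The last of these groups overlapped both with the third and with the second.

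In rat liver, Igfbp3 is made by non-parenchymal cells rather than hepatocytes, and in whole liver fewer cells of a type and less RNA per cell cannot be told apart. The stellate and fibroblast markers (11 of 11 on the array, 8 tested) summed to 2129, 1996 and 1990 in withdrawn testosterone mice and to 2411, 2502 and 2295 in withdrawn vehicle mice, without overlap, and none of the 8 was called. Of all single genes 14.7% were lower without overlap in this comparison. A sum follows its brightest markers most. The median log2 change was -0.36 for the stellate, -0.05 for the endothelial and -0.01 for the Kupffer cell markers tested, against -0.04 over all genes. The endothelial markers (12 of 12 on the array, 10 tested, none called) summed to 1086 to 1153 in withdrawn testosterone mice and 1061 to 1241 in withdrawn vehicle mice. The Kupffer cell and macrophage markers (all 11 tested, none called) summed to 2167 to 2389 and to 1732 to 3299 in the same groups. No marker of these lists was at or under the signal floor of 4.84 on every array, and the part of these cells in the Igfbp3 change was not tested.

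The genes that followed Igfbp3 most closely over the 12 mice were Nupl1, Eif1ax, Gas6, Col14a1 and Dll1 (Pearson r 0.90 to 0.93, Spearman rho 0.87 to 0.94, and r 0.79 to 0.84 without the 2 mice farthest from the Igfbp3 median). Gas6, a ligand of the TAM receptor tyrosine kinases, had 97.3, 79.6 and 86.8 in withdrawn testosterone mice, against 178, 274 and 230 in withdrawn vehicle mice. Col14a1, a collagen that binds to fibril surfaces, had 116, 99.3 and 122 against 198, 198 and 178 in the same groups. For both, all treated testosterone mice also lay below all treated vehicle mice, as was so for 15.1% of all genes. Eif1ax overlapped in that comparison (195 to 204 against 203 to 205). These genes were picked for their correlation with Igfbp3 over the same 12 mice, so their likeness to it in both comparisons is partly a result of the choice.

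**Figure D4:**
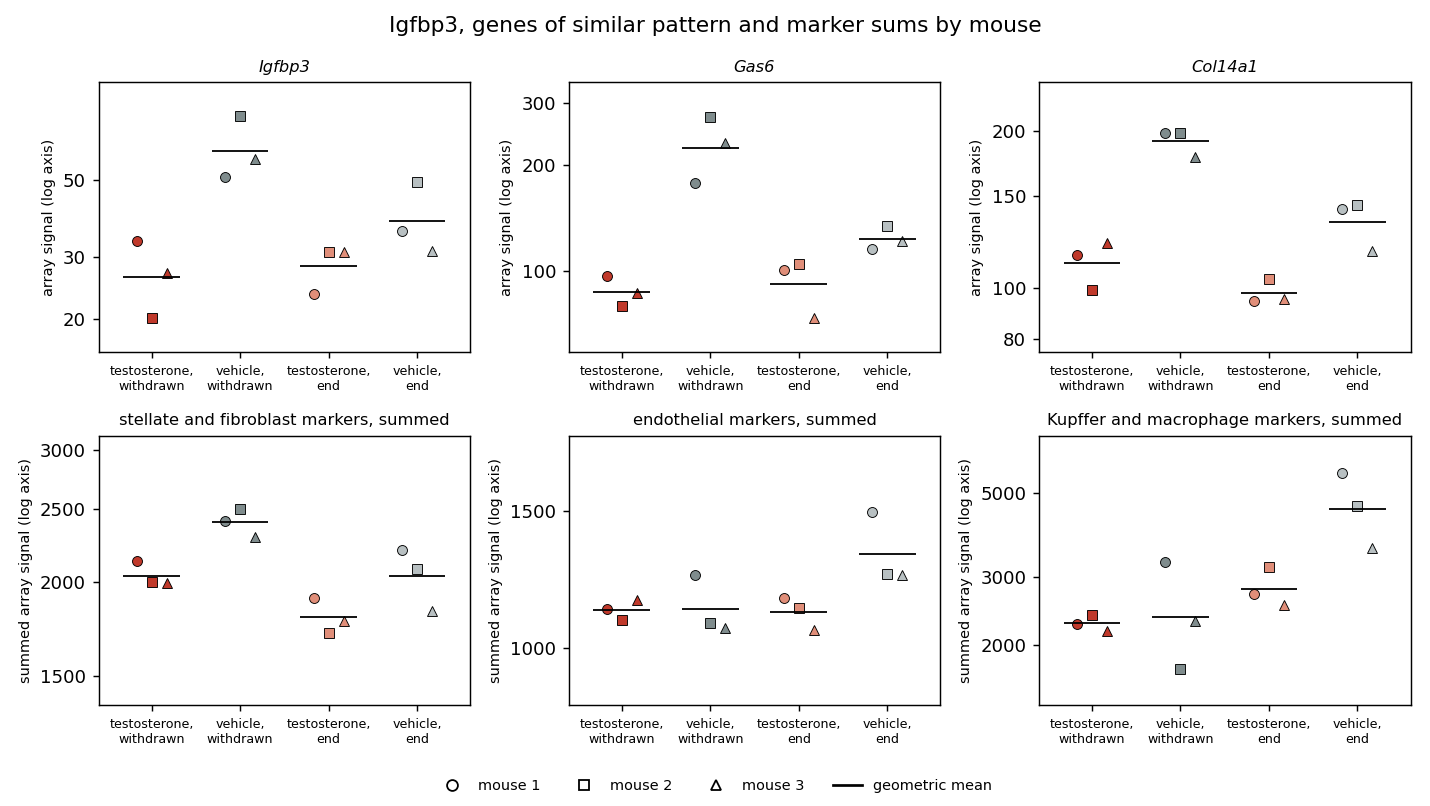
Array signal (log axis) by mouse of Igfbp3, of Gas6 and Col14a1, which followed it closely, and summed signals of 3 marker lists, with geometric means as bars. Withdrawn vehicle mice are highest for Igfbp3 (50.9 to 75.9) and for the stellate sum (2295 to 2502), while the Kupffer sum is highest in vehicle mice at treatment end (3575 to 5638).

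Igfbp2, which the liver secretes in quantity in fasting and in lean animals, was bright on all arrays and was called in no comparison. Its signals after withdrawal were 1824, 2364 and 1852 in testosterone mice, against 1119, 1666 and 1680 in vehicle mice. At treatment end they were 1412, 1876 and 1325 in testosterone mice, against 1661, 927 and 1231 in vehicle mice. After withdrawal all testosterone mice lay above all vehicle mice, with a log2 difference of 0.45 ± 0.20 (SE; limma, adjusted p = 0.217), and at treatment end the groups overlapped (0.30 ± 0.20, adjusted p = 0.332). Between the times the differences were 0.40 ± 0.20 in testosterone mice and 0.24 ± 0.20 in vehicle mice, withdrawal over end of treatment. By geometric mean Igfbp2 was highest in withdrawn testosterone mice (1999), followed by treated testosterone mice (1520), withdrawn vehicle mice (1463) and treated vehicle mice (1238). The first group overlapped with the second and with neither vehicle group, and the other 3 groups all overlapped with each other. The 5 genes most like it over the 12 mice were led by Mbd3, a subunit of the NuRD complex, and Mlst8, a subunit of the mTOR complexes (r 0.94 and 0.92, and 0.89 and 0.81 without the 2 farthest mice).

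Igfbp4, which binds IGFs in tissues and is cut by the protease Pappa, varied little on its main probe set. That probe set, 1437405_a_at, had 2675, 2540 and 2718 in withdrawn testosterone mice, against 2623, 2725 and 2760 in withdrawn vehicle mice. At treatment end it had 2635, 2687 and 2580 in testosterone mice, against 2391, 2490 and 2376 in vehicle mice. The vehicle mice at treatment end were thus the lowest, below all other mice, by 0.12 ± 0.06 on the log2 scale against treated testosterone mice (limma, adjusted p = 0.169) and 0.16 ± 0.06 against withdrawn vehicle mice (adjusted p = 0.0755). Its log2 SD within groups was 0.03 to 0.05, where the median gene had 0.14 to 0.17. The 5 genes most like it over the 12 mice were Trip11, Atad2b, Rab6a, Pofut2 and Stt3b (r 0.92 to 0.93, and 0.78 to 0.91 without the 2 farthest mice).

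The 6 probe sets of Igfbp4 did not show the same pattern. Probe set 1421991_a_at had signals of 215, 166 and 154 in testosterone mice at treatment end, against 357, 257 and 324 in vehicle mice. After withdrawal it had 228, 273 and 289 in testosterone mice, against 283, 226 and 221 in vehicle mice. When each of 11136 probe sets was tested singly, of which 19.6% were called at treatment end, this one was 0.81 ± 0.16 lower on the log2 scale in testosterone mice (limma, adjusted p = 0.00291), the opposite side from the main probe set.

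The same probe set differed by 0.92 ± 0.22 between the times in its testosterone effect (limma, adjusted p = 0.0319; 4.97% of probe sets called) and was 0.57 ± 0.16 higher in testosterone mice after withdrawal than at treatment end (adjusted p = 0.0313; 10.7% called). With the actin ratio as a covariate these 3 changes were 0.05, -0.16 and -0.15, of the opposite sign and not called (adjusted p = 0.966, 0.999 and 0.799). Leaving out single mice ended the call of the difference between the times in 7 of 12 cases and that between the times in testosterone mice in 4 of 12, and that at treatment end in none of 12. The other 4 probe sets, with signals of 892 to 2683, were called in no comparison, and their log2 changes at treatment end ran from -0.08 to 0.10. Which transcripts each probe set reads is not given in the sources used here.

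**Figure D5:**
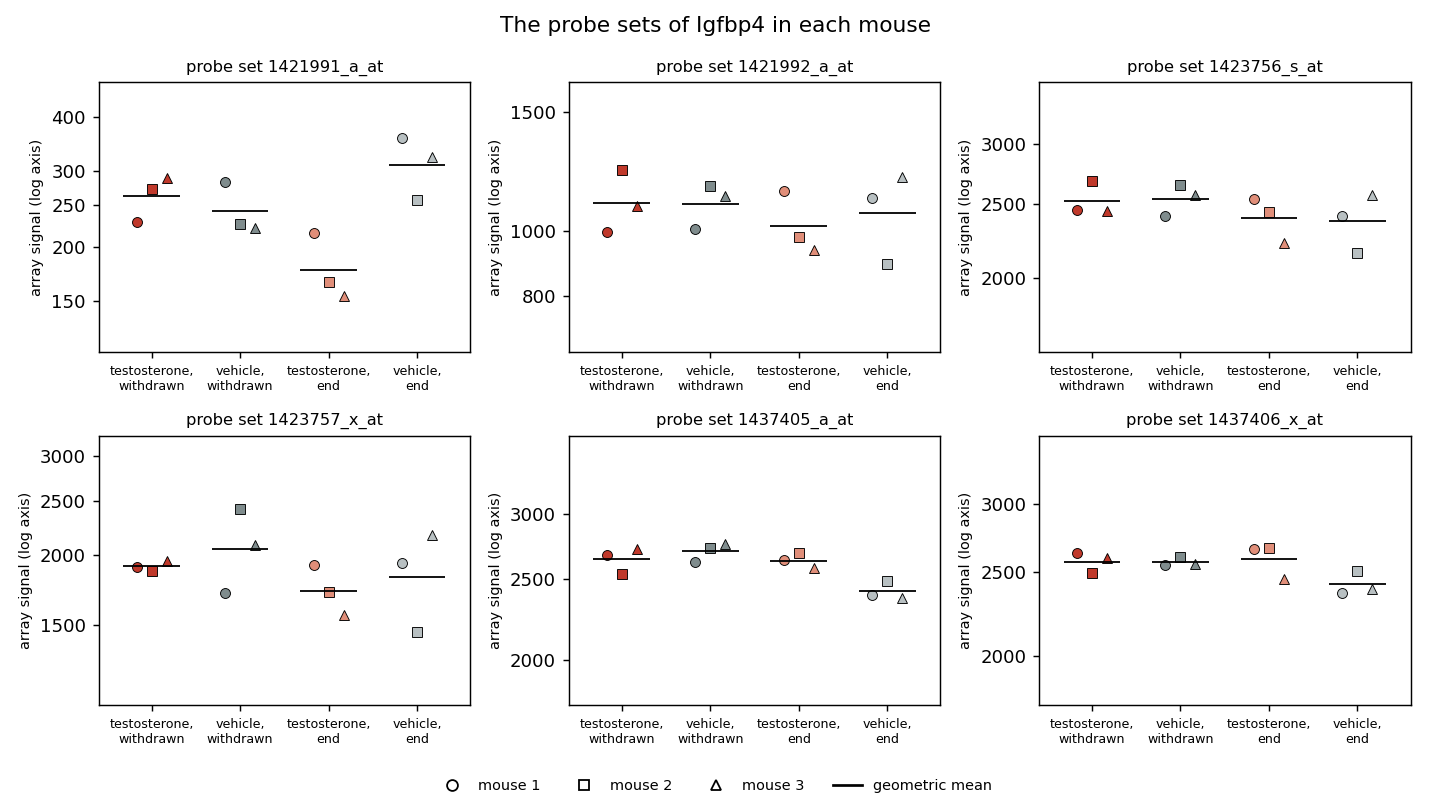
Array signal (log axis) of the 6 probe sets of Igfbp4 by mouse and group, with geometric means as bars. Probe set 1421991_a_at has its lowest signals in testosterone mice at treatment end (154 to 215, against 257 to 357 in vehicle mice), while 1437405_a_at has its lowest in vehicle mice at that time (2376 to 2490).

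Igfbp5, a binding protein that attaches to the extracellular matrix, was scattered. Its main probe set had 62.8, 26.2 and 30.8 in withdrawn testosterone mice, against 50.2, 42.3 and 35.3 in withdrawn vehicle mice. At treatment end it had 42.7, 28.8 and 38.8 in testosterone mice, against 39.1, 82.2 and 78.5 in vehicle mice. Vehicle mice 2 and 3 at treatment end had the highest signals of all 12, and vehicle mouse 1 lay among the testosterone mice. The log2 difference at treatment end was -0.80 ± 0.32 (SE) and was not called (limma, adjusted p = 0.0938). It passed without vehicle mouse 1 (-1.15, adjusted p = 0.0261) and without withdrawn testosterone mouse 1 (adjusted p = 0.0451). The genes most like it were Tmpo, Zfp219, Ly6g2, Noct and Zap70 (r 0.80 to 0.85, and 0.62 to 0.81 without the 2 farthest mice). A second probe set of Igfbp5, at 3.63 to 17.5, lay below the array's median on all 12 arrays.

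Igfbp7, a low-affinity IGF binder found in vessel walls, had a main probe set with 373, 399 and 376 in withdrawn testosterone mice, against 395, 358 and 345 in withdrawn vehicle mice. At treatment end it had 421, 434 and 433 in testosterone mice, against 533, 387 and 458 in vehicle mice. The log2 differences between withdrawal and treatment end were -0.17 ± 0.11 in testosterone mice, which did not overlap (limma, adjusted p = 0.354), and -0.32 ± 0.11 in vehicle mice (adjusted p = 0.0537). Testosterone and vehicle mice differed by -0.09 ± 0.11 at treatment end and 0.07 ± 0.11 after withdrawal. The genes most like it were Nrbp2, Cetn3, Drg1, Nono and Cdc37 (r 0.89 to 0.92, and 0.70 to 0.92 without the 2 farthest mice). The other probe sets of Igfbp7, at 8.17 to 19.2 and 3.98 to 24.1, lay above the array's median on 0 and 1 of the 12 arrays.

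Igfbp6, which prefers IGF-2, lay above the array's median on 2 of the 12 arrays. Its signals were 26.6, 22.3 and 18.0 in withdrawn testosterone mice, against 16, 16.3 and 15.8 in withdrawn vehicle mice, and 13.7, 17 and 19.4 in testosterone mice, against 17.4, 19.3 and 20 in vehicle mice, at treatment end. The withdrawn testosterone mice lay above the withdrawn vehicle mice, at signals where the array separates a gene poorly from background, and no test was made.

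Over the family, limma called 0 of the 6 tested genes between testosterone and vehicle mice at treatment end. Of all genes 17.4% were called there (9.42% higher and 8.01% lower). Igfbp1 and Igfbp5 had an unadjusted limma p under 0.05 (0.0387 and 0.0234). The share of all genes under that unadjusted threshold was not counted, so this does not set the 2 genes apart. The mice of 2 of the 6, Igfbp3 and Igfbp4, did not overlap, against 35.7% of all genes (20.6% higher and 15.1% lower). After withdrawal 1 of the 5 tested, Igfbp3, was called, against 6.00% of all genes (2.74% higher and 3.26% lower), and the mice of Igfbp1, Igfbp2 and Igfbp3 did not overlap, against 25.9% of all genes (11.2% higher and 14.7% lower); the Igfbp1 values here belong to its choice and count for nothing. The difference between the effects was called for 0 of 5, against 2.19% of all genes (0.790% higher and 1.40% lower). Igfbp3 had an unadjusted limma p of 0.0280 for it, and the share of all genes under 0.05 before adjustment was not counted here either.

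Between the times, 1 of 6, Igfbp1, was called in vehicle mice, against 17.8% of all genes (11% higher and 6.83% lower), and the mice of Igfbp1, Igfbp3 and Igfbp4 did not overlap, against 35.1% (21.6% higher and 13.5% lower). In testosterone mice 0 of 5 were called, against 10.9% of all genes (5.57% higher and 5.31% lower). Igfbp7 alone had mice that did not overlap, against 31.0% (14.9% higher and 16.1% lower). None of the 5 had an unadjusted limma p under 0.05, a threshold at which the share of all genes was not counted. The comparisons share mice, so the calls are not independent of each other. These counts rest on 5 or 6 genes and do not set the family apart from other genes.

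The other genes of the IGF system gave a count of their own. Of 21 listed genes, 19 were on the array and 8 passed the filter: Igf1, Igf2r, Igfals, Ghr, Grb10, Grb14, Irs1 and Htra1. At treatment end 2 of the 8 were lower in testosterone mice and none was higher, where 8.01% of all genes were lower and 9.42% higher; with 8 genes this count does not set the list apart. Igf1, the hepatic ligand, had 1781, 1698 and 1783 in testosterone mice, against 2307, 2627 and 2376 in vehicle mice, a log2 change of -0.47 ± 0.08 (limma, adjusted p = 0.000891). Igfals, the partner of Igfbp3 in the blood complex, had 254, 239 and 166 against 322, 335 and 357 in the same groups (-0.64 ± 0.15, adjusted p = 0.00887). For both genes every testosterone mouse lay below every vehicle mouse. The actin ratio separated the same groups, and with it as a covariate calls over all genes at treatment end fell from 1258 to 63. Its part in the Igf1 and Igfals changes was not tested.

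After withdrawal none of the 8 was called between testosterone and vehicle mice. Igf1 had 2240, 2340 and 2262 in testosterone mice, against 2413, 1991 and 2194 in vehicle mice. The difference between its effects at the 2 times was called (0.53 ± 0.11, limma adjusted p = 0.0268). Over all genes 2.19% were called for this difference, and calls fell from 158 to 1 with the actin ratio as a covariate. The part of RNA quality in the Igf1 difference was not tested. In testosterone mice Igf1 was 0.38 ± 0.08 higher after withdrawal than at treatment end (adjusted p = 0.00643). Igfals had 216, 246 and 281 against 305, 278 and 337 in withdrawn testosterone and vehicle mice (-0.31 ± 0.15, adjusted p = 0.246), and its difference between the times was not called (0.33 ± 0.21, adjusted p = 0.379).

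Ghr, the growth hormone receptor through which Igf1 and Igfals are induced, was called in no comparison, with log2 differences of 0.25 ± 0.09 at treatment end and 0.20 ± 0.09 after withdrawal. Igf2r, the clearing receptor of IGF-2, was not called either, and Igf1r, at 4.09 to 11.3, did not pass the filter. Irs1, an adaptor of the insulin and IGF receptors, rose after withdrawal in testosterone mice (1.18 ± 0.20, limma adjusted p = 0.00198) and in vehicle mice (1.21 ± 0.20, adjusted p = 0.00137), relative to treatment end. The CCN genes and relatives that share the IGF-binding fold had 7 of 7 on the array and 3 tested, of which Ccn1 was called, higher after withdrawal in testosterone mice (1.23 ± 0.21, adjusted p = 0.00170) and in vehicle mice (1.22 ± 0.21, adjusted p = 0.00148).

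Lists of genes under hormones and states that are known to act on Igfbp1 were counted in the vehicle mice, where Igfbp1 was called lower after withdrawal. In vehicle mice between the times 11% of all genes were called higher and 6.83% lower. With the actin ratio as a covariate, calls over all genes there fell from 1288 to 231. Of 9 tested insulin-repressed and gluconeogenic genes, 2 were lower, Klf15 (-0.81 ± 0.14) and Slc2a2 (-0.31 ± 0.09), and none was higher. The list's median change was -0.21, against 0.06 over all genes. Pck1 (-0.23 ± 0.14) and G6pc (0.37 ± 0.31) were not called. Of 10 tested insulin-induced lipogenic genes, Thrsp (-1.52 ± 0.20) and Srebf1 (-0.62 ± 0.17) were lower.

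In the same comparison Per1 (-2.04 ± 0.42) and Lpin1 (-1.35 ± 0.27) were lower among 9 glucocorticoid-induced genes. Of 5 tested ATF4 and integrated stress genes, 3 were higher: Cdkn1a (1.98 ± 0.28), Ddit3 (0.62 ± 0.15) and Atf4 (0.52 ± 0.11). Of 8 tested fasting genes under PPARA, 5 were higher, with Pdk4 (1.97 ± 0.35) and Acot1 (1.36 ± 0.27) the most, and Cpt1a was lower (-0.52 ± 0.14). Of 11 acute phase genes, 4 were lower, among them Lcn2 (-2.74 ± 0.90), and vehicle mouse 2 at treatment end stood apart with a Saa1 signal of 5042, against 379 and 247 in the other vehicle mice of its group. Of 11 Kupffer cell markers in the same comparison 9 were lower, with a median change of -1.05, against 0.06 over all genes.

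After withdrawal, testosterone against vehicle, 6.00% of all genes were called, against 17.8% in the vehicle mice between the times. None of 9 insulin-repressed genes was called, and 2 of 10 lipogenic genes were lower, Pnpla3 (-1.65 ± 0.39) and Pklr (-0.64 ± 0.15). Among glucocorticoid-induced genes Mt1 (-3.78 ± 0.37) and Mt2 (-4.00 ± 0.47), which also answer to metals, were lower and Dusp1 was higher. None of the 5 stress genes and none of the 8 PPARA genes was called, and 1 of 11 acute phase genes was lower, Orm3 (-1.72 ± 0.33).

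At treatment end, testosterone against vehicle, 9.42% of all genes were higher and 8.01% lower. Calls over all genes fell from 1258 to 63 with the actin ratio as a covariate. None of the 9 insulin-repressed genes was called and 1 of 10 lipogenic genes, Acaca, was lower (-1.38 ± 0.29). Mt1 (-4.83 ± 0.37) and Mt2 (-4.4 ± 0.47) were lower and Lpin1 (1.15 ± 0.27) was higher among glucocorticoid-induced genes. Of the stress genes 1 of 5, Chac1, was higher (1.32 ± 0.26), as were 3 of 8 PPARA genes, Acot1 (1.56 ± 0.27), Cyp4a14 (0.84 ± 0.24) and Acadm (0.25 ± 0.08). Of 11 acute phase genes 5 were lower, with Lcn2 (-3.81 ± 0.90) and Orm3 (-3.49 ± 0.33) the most. Of 11 Kupffer cell markers 6 were lower, with sums of 2535 to 3200 in testosterone mice, against 3575 to 5638 in vehicle mice.

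In testosterone mice, withdrawal against treatment end, 5.57% of all genes were higher and 5.31% lower. Calls over all genes fell from 785 to 90 with the actin ratio as a covariate. G6pc was higher (1.24 ± 0.31, limma adjusted p = 0.0179), the only one of 9 insulin-repressed genes to be so, while Foxo3 (-0.78 ± 0.15) and Slc2a2 (-0.31 ± 0.09) were lower. Of 10 lipogenic genes 4 were lower, Thrsp (-1.98 ± 0.20), Srebf1 (-0.99 ± 0.17), Fasn (-0.89 ± 0.18) and Elovl6 (-0.76 ± 0.18). Lpin1 (-3.28 ± 0.27) and Per1 (-2.30 ± 0.42) were lower and Mt1 (1.55 ± 0.37) was higher among glucocorticoid-induced genes. Of the 5 stress genes 3 were higher, Cdkn1a (1.94 ± 0.28), Ddit3 (1.12 ± 0.15) and Atf4 (0.38 ± 0.11), and Chac1 was lower (-1.85 ± 0.26).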

How the data were processed

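The authors deposited 1 table of array intensities, 1 signal per probe set and array, and GCOS and MAS5 are named, without a version, in the submitters' processing notes. Per the design text of the series each replicate is another mouse; groups follow the sample titles. Detection calls and scan dates were not used here. Of 22690 probe sets, 64 were controls; of the other 22626, the platform annotation gives 1 symbol to 20380, several to 691 and none to 1555. Signals under 4.84, the 25th percentile, were set to that value before log2, and each gene was represented by whichever of its probe sets was brightest in mean log2 signal. Array number limits the precision: 3 per group.

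Tests used limma 3.58.1 in R 4.3.3 (lmFit and eBayes with a variance trend, two-sided) on all 12 arrays with 4 group means, after a test on simulated data. Means ± SD are arithmetic over mice; folds are ratios of geometric means. The members and gene lists were chosen with earlier results of these data known. Named genes are all members, up to 4 called genes per list and comparison, a few fixed genes of the IGF axis and gluconeogenesis, and the 5 genes most correlated with a member. The Saa1 signal of treated vehicle mouse 2 was singled out after its value was seen. Alternatives were another floor, scaling, filter, choice of probe sets, variance model, the actin ratio as a covariate, a replicate block, only the groups compared, and leaving out mice.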

Additional observations from a re-analysis of the deposited data

Results flagged for a closer look

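Igfbp1 differed between testosterone and vehicle mice with opposite signs at the 2 times. Its log2 difference between testosterone and vehicle mice was 3.46 after withdrawal and -1.34 at treatment end, so that the effects differed by 4.80. After withdrawal every testosterone mouse lay above the vehicle mean, and at treatment end every testosterone mouse lay below it. The value at treatment end was not called (limma, adjusted p = 0.132), came from groups that overlap, and was -0.07 with the actin ratio as a covariate. The difference between the times was not tested, because the spread of Igfbp1 after withdrawal had led to its choice.

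Igfbp7 was marked by the same comparison of directions with small values: 0.07 after withdrawal and -0.09 at treatment end, a difference of 0.15, which limma did not call (adjusted p = 0.602).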

How the results depend on the processing

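Each count of called Igfbp genes was recomputed under 12 other settings (11 for the difference between the times), without each mouse in turn, and without withdrawn testosterone mice 1 and 2 together. The last was chosen after seeing the data and leaves 1 mouse in that group, which is assumed to vary like the others. Leaving out 1 mouse gave counts of 0 to 1 at treatment end, 1 to 1 after withdrawal and 1 to 3 between the times in vehicle mice. At treatment end the count of 0 became 1 (Igfbp1) with only the groups compared, and also without those 2 mice. After withdrawal the count of 1 became 0 without those 2 mice, with Igfbp3 at -1.17 against -1.21 (adjusted p = 0.0523). In vehicle mice the count of 1 became 2 with log2(signal + 16), with median centring and without those mice, 4 with array weights and 0 with the actin ratio; without the filter it stayed 1, with Igfbp4 (adjusted p = 0.0423) in place of Igfbp1. For the difference between the times and for testosterone mice between the times it was 0 throughout. The Igfbp3 call after withdrawal held in the 12 settings and without each single mouse (log2 -1.38 to -0.85, adjusted p 0.00086 to 0.0443). Samples with the same number did not deviate together (0 of 18 pairs with a correlation over 0.1; range -0.194 to 0.00565), so the numbers were not taken as pairs. A replicate block changed no member count (Igfbp3 after withdrawal adjusted p = 0.0101, Igfbp1 in vehicle mice adjusted p = 0.00945). The actin covariate turned the Igfbp4 probe set 1421991_a_at to 0.05 at treatment end, -0.16 for the difference and -0.15 in testosterone mice between the times.

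Over all genes, calls at treatment end numbered 1258, but 2185 over single probe sets and 63 with the actin ratio. After withdrawal they numbered 433, but 286 without the filter, 866 with array weights, 263 with the actin ratio and 250 without the 2 mice. The difference had 158, but 37 without the filter, 554 over single probe sets, 72 without the variance trend, 693 with array weights, 1 with the actin ratio and 55 with the replicate block. Vehicle mice between the times had 1288, but 792 without the filter and 231 with the actin ratio, and testosterone mice 785, but 490 without the filter, 1186 over single probe sets, 90 with the actin ratio and 313 without the 2 mice. Leaving out 1 mouse gave 789 to 1360 at treatment end, 236 to 634 after withdrawal, 26 to 542 for the difference, 584 to 1386 in vehicle mice and 454 to 888 in testosterone mice. The causes were not tested. The untested Igfbp1 difference after withdrawal was 5.20 without those mice.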
